A study of Homo sapiens with 9 samples.

Results

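The 34 genes described here are cytosolic aminoacyl-tRNA synthetases (19 genes), amino acid transporters (7 genes) and enzymes that make serine, glycine, asparagine and proline or handle their one-carbon units (8 genes). They were chosen by name, with earlier results of these data known, and all 34 were found by their Ensembl identifiers among the 60664 genes listed in each of the 9 deposited count tables. The tables hold RNA-seq counts of MDA-MB-231, a line derived from human breast cancer with basal and mesenchymal traits. Scramble control (SC) cells were kept at 0.77 cP, the viscosity of plain culture medium, or at 8 cP, and cells with a short hairpin RNA against *TRPV4* (shTRPV4) were kept at 8 cP, with 3 samples in each group, all taken on day 6. According to the study's methods, the higher viscosity was reached by adding methylcellulose to the medium, and the scramble and *TRPV4* hairpins were carried by a puromycin-selected lentiviral vector in stable lines, so that SC cells and shTRPV4 cells are separate lines. *TRPV4* encodes a calcium-permeable ion channel that opens under mechanical and osmotic stimuli. The methods assign the second of the study's *TRPV4* hairpins to its experiments outside a single set, without naming the RNA-seq separately, and the baseline viscosity is represented by SC cells alone in these tables. The question asked of these genes was how their RNA differed between the viscosities in SC cells, and between SC and shTRPV4 cells at 8 cP.

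Aminoacyl-tRNA synthetases join each amino acid to its own transfer RNA, the step that supplies the ribosome with charged building blocks. Amino acids for this step are taken up by membrane transporters or made in the cell. When charged transfer RNA runs short, the kinase GCN2 (*EIF2AK4*) phosphorylates the initiation factor eIF2, translation of the transcription factor ATF4 rises, and ATF4 with its CEBP partners activates many synthetase, transporter and amino acid synthesis genes together through a short DNA element. ATF4 is controlled to a large extent by translation, so the level of its RNA does not give the level of the protein. Growth signalling through MYC and mTORC1 also acts on many of the same genes.

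The letters of that element, TGATGNAA on either strand, were searched in RefSeq promoter windows (assembly GRCh38.p14) that reach from 250 bases before to 50 bases after the start of transcription. A window was at hand for 28 of the 34 members, and not for *YARS1*, *VARS1*, *LARS1*, *PSPH*, *SHMT2* and *PYCR1*. The letters were present in 12 of these 28 genes (42.9%), against 4.46% of the 27305 genes and 3.62% of the 35116 promoters in the table. The list was drawn from gene classes of which many are activated through this element, so the contrast describes the choice of genes. The narrower form TGATGCAA, which is contained in the first, was present in 8 of the 28 genes (28.6%), against 1.08% of all genes and 0.866% of all promoters in the table. Of the 16 synthetases with a window, 7 held the first form and 6 the narrower one. The following windows were chosen because their genes recur in the comparisons, first 5 synthetases and 2 transporters that were called higher in at least 1 comparison, then a synthetase and a transporter that carried the narrower form and were called lower in 1. Each is written 5′ to 3′ on the strand of its gene, with the matched letters in capitals. Where the match lies on the opposite strand the capitals show its reverse complement.
NARS1, chr18:57621805-57621832: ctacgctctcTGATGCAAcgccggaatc
IARS1, chr9:92293693-92293720: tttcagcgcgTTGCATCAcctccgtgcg
TARS1, chr5:33440957-33440984: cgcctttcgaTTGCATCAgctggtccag
MARS1, chr12:57488054-57488081: ccggttccggTTGCATCAgcgagggatt
GARS1, chr7:30594835-30594862: tacgcggcgaTTTCATCAtgctccgagc
SLC3A2, chr11:62881726-62881748: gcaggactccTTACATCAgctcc
SLC38A1, chr12:46266503-46266530: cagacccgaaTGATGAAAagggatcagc
CARS1, chr11:3057408-3057435: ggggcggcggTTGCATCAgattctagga
SLC1A5, chr19:46784894-46784921: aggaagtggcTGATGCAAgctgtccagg

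Counted with the first transcribed base as 0, the first matched base lay at position 14 in *NARS1*, -13 in *IARS1*, -4 in *MARS1* and -97 in *SLC1A5*. A match describes letters only and was not measured as a binding site. *SLC7A5*, *SLC38A2*, *FARSB* and *PSAT1*, among the members with the largest changes given below, had a window but no match.

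Each sample held between 64571681 and 103518036 counts in total, and levels are given as CPM, the count of a gene relative to the library size scaled by TMM, a method that sets samples on a common scale through the bulk of their genes. Differences were tested with edgeR's quasi-likelihood test on 18264 genes with sufficient counts, all 34 members among them, with the Benjamini-Hochberg adjustment of p over those genes. A gene was called when this adjusted p was below 0.05. Replicates in a group are numbered in the labels, but the labels do not say whether they came from separate cultures, and the study's general statement that repeats were independent biological ones does not name the RNA-seq, so the p-values measure the spread between these samples, which may be technical. *TRPV4* itself had 40, 28 and 54 counts in SC cells at 0.77 cP, 64, 45 and 24 in SC cells at 8 cP, and 7, 1 and 13 in shTRPV4 cells (log2 fold change -2.51, standard error 0.49, adjusted p = 0.00219 in shTRPV4 against SC cells at 8 cP). Markers of the line, *VIM*, *CD44* and *EGFR*, had group means between 208 and 1049 CPM, *CDH1*, *ESR1* and *PGR* were at or below 0.0916 CPM, but *ERBB2* lay at 93.2 to 95.5 CPM and *EPCAM* at 18.1 to 19.0 CPM. Among 10 markers of leukocytes, endothelium and fibroblasts, the group means lay at or below 6.40 CPM, and the endothelial gene *PECAM1* moved from 5.04 CPM in SC cells at 0.77 cP to 2.75 CPM in SC cells at 8 cP and 2.18 CPM in shTRPV4 cells. The part of such cells in the results was not tested, and in bulk RNA a change in the share of cells that express a gene cannot be told apart from a change in RNA per cell.

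Levels of different genes were compared per kilobase of exon (FPKM), once with all merged exons and once with the canonical transcript as the length. In SC cells at 0.77 cP *TARS1*, the threonyl-tRNA synthetase, had the highest level of the 34 on both lengths, at 115 FPKM over merged exons and 184 FPKM over the canonical transcript. The same 4 genes were lowest on both: *ASNS*, the asparagine synthetase, at 0.27 and 0.54 FPKM, *PHGDH*, the first enzyme of serine synthesis, at 0.62 and 3.07 FPKM, *SLC1A4* at 1.22 and 1.86 FPKM, and *SLC6A9* at 2.04 and 3.34 FPKM. The order of the remaining genes depended on the length used, because merged exons of some genes are many times longer than their main transcript. *ASNS* also shares 2415 exon bases with an unnamed gene (ENSG00000284707) on its own strand, so its reads could have been split or set aside in counting. Of the 34 members, 16 share no exon base with another gene on either strand.

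**Figure D1:**
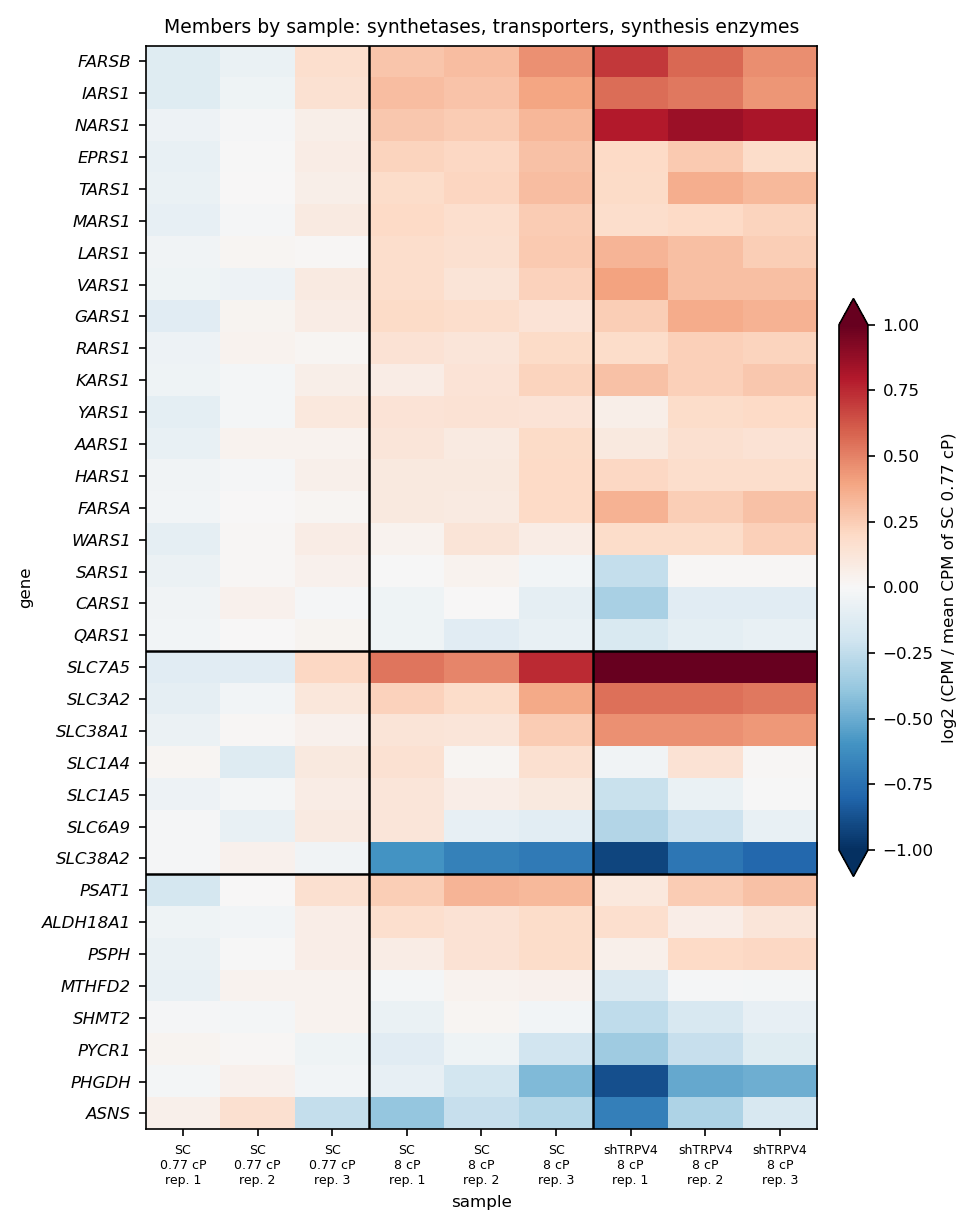
Level of each of the 34 genes (rows, grouped as synthetases, transporters and synthesis enzymes) in each of the 9 samples (columns), as the log2 ratio of its CPM to the mean CPM of SC cells at 0.77 cP, with red above and blue below that mean and colours ending at 1 and -1. Most synthetase rows turn red from the left block to the middle and right blocks, *SLC7A5* and *NARS1* are darkest red in shTRPV4 cells, and *SLC38A2* is blue in all 6 samples at 8 cP.

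In SC cells, most synthetases and the pair *SLC7A5* and *SLC3A2*, which together form the leucine importer LAT1, were higher at 8 cP than at 0.77 cP, while *SLC38A2*, a sodium-coupled importer of small neutral amino acids, was lower. Of the 34 members 17 rose and 1 fell, so that 52.9% were called, against 19.3% of the 18264 genes tested. Over all genes 9.57% were higher and 9.69% lower at 8 cP. Because most members are well expressed, the same shares were taken over the 4590 genes with a mean of at least 50 CPM, a limit set after the data had been seen, of which 20.2% were higher and 9.87% lower. The median log2 fold change was 0.14 over the members, -0.0065 over all genes and 0.041 over the well expressed genes. The changes were small: the called members ranged from a log2 fold change of -0.66 for *SLC38A2* to 0.59 for *SLC7A5*.

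Among the 19 synthetases 12 rose with viscosity and none fell, 17 had a fold change above 0, and their median was 0.15. Summed over the 19 genes, the level went from 3257 ± 144 CPM in SC cells at 0.77 cP to 3656 ± 89.8 CPM at 8 cP (SD, n = 3 each). The steepest rise belonged to *FARSB*, which encodes the beta subunit of phenylalanyl-tRNA synthetase. It had 49.6, 51.3 and 60.7 CPM in SC cells at 0.77 cP and 65.1, 66.8 and 74.1 CPM at 8 cP (log2 fold change 0.35, standard error 0.08, adjusted p = 0.00664). The lowest sample at 8 cP lay above the highest at 0.77 cP. Its partner subunit *FARSA* had 133 ± 2.19 CPM (SD, n = 3) at 0.77 cP and 146 ± 6.35 CPM (SD, n = 3) at 8 cP and did not pass the threshold (log2 fold change 0.13, standard error 0.05, adjusted p = 0.057). *IARS1*, the isoleucyl-tRNA synthetase, had 227, 239.9 and 274 CPM at 0.77 cP and 306, 301 and 324 CPM at 8 cP (log2 fold change 0.33, standard error 0.06, adjusted p = 0.00266). *NARS1*, which charges asparagine, had 103.6, 107 and 112 CPM at 0.77 cP and 129, 128 and 135 CPM at 8 cP (log2 fold change 0.29, standard error 0.04, adjusted p = 0.000817). For both genes every sample at 8 cP lay above every sample at 0.77 cP, and replicate 3 was the highest of each group.

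The other synthetases that rose were *EPRS1*, which charges both glutamate and proline (0.24, adjusted p = 0.0034), *TARS1* (0.24, adjusted p = 0.0069), *MARS1* for methionine (0.21, adjusted p = 0.00833) and *LARS1* for leucine (0.20, adjusted p = 0.00662), each given as the log2 fold change with edgeR's adjusted p. Smaller rises were called for *VARS1* for valine (0.18, adjusted p = 0.0218), *GARS1* for glycine (0.17, adjusted p = 0.0357), *RARS1* for arginine (0.15, adjusted p = 0.0218), *KARS1* for lysine (0.14, adjusted p = 0.0436) and *HARS1* for histidine (0.13, adjusted p = 0.0484). In all 12 the samples of the groups did not overlap. This was not limited to called genes, as 16 of the 19 synthetases had groups without overlap. The share of such genes over all genes was not taken, so the count is not read as a result about the members. *GARS1* and *KARS1* are known to encode the mitochondrial form of their enzyme as well as the cytosolic one, and these counts do not separate the forms. *YARS1* for tyrosine (0.14, adjusted p = 0.0783), *AARS1* for alanine (0.13, adjusted p = 0.0528) and *WARS1* for tryptophan (0.08, adjusted p = 0.263) had positive values that did not pass the threshold. *SARS1* for serine (0.00, adjusted p = 0.994), *CARS1* for cysteine (-0.04, adjusted p = 0.641) and *QARS1* for glutamine (-0.08, adjusted p = 0.217) had values near or below 0.

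*MARS1* shares exon bases on the opposite strand with *ARHGAP9* and with *DDIT3*, a stress gene that went the other way in the same comparison. The number of bases shared on that strand is 874 of the 7028 exon bases of *MARS1*, and the strand option of the counting is not given in the sources used here, so reads from such shared stretches cannot be told apart. Among the 16 members that share no exon base, 11 rose and 1 fell, with a median log2 fold change of 0.17. Of the 12 genes with TGATGNAA in the window 7 rose and none fell (median 0.17), and of the 16 without it 8 rose and 1 fell (median 0.13).

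*SLC7A5*, the light chain of LAT1 that carries leucine and other large neutral amino acids in exchange for glutamine, had 249.8, 251 and 312 CPM in SC cells at 0.77 cP and 392, 379 and 454 CPM at 8 cP (log2 fold change 0.59, standard error 0.09, adjusted p = 0.000787). All samples at 8 cP lay above all samples at 0.77 cP, with replicate 3 highest in each group. *SLC3A2*, the heavy chain that brings LAT1 to the cell surface, went from 231 ± 16.8 CPM to 278 ± 20.3 CPM (SD, n = 3 each) with no overlap (log2 fold change 0.27, standard error 0.06, adjusted p = 0.00609). *SLC38A1*, which imports glutamine with sodium, went from 153 ± 5.31 CPM to 172 ± 9.15 CPM (SD, n = 3 each) with no overlap (log2 fold change 0.17, standard error 0.05, adjusted p = 0.0214).

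*SLC38A2* encodes SNAT2, a relative of the *SLC38A1* product that is known for its response to amino acid shortage and to loss of cell volume. It was the only member called lower, with 356, 369.9 and 351 CPM at 0.77 cP and 237, 225 and 219.7 CPM at 8 cP (log2 fold change -0.66, standard error 0.05, adjusted p = 6.05e-07). The 3 samples of each group lay close together and the groups were far apart. *SLC1A5*, an exchanger of glutamine and other neutral amino acids (0.09, adjusted p = 0.247), its relative *SLC1A4* (0.11, adjusted p = 0.392) and the glycine transporter *SLC6A9* (-0.02, adjusted p = 0.897) had overlapping groups and did not pass the threshold.

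Of the 8 synthesis genes 2 rose (25%), 4 had a positive and 4 a negative value, and their median was -0.0025. Of all genes tested 19.3% were called, and of those with at least 50 CPM 30.0%. These calls are therefore given for single genes. *PSAT1*, the aminotransferase of serine synthesis, had 78.8, 89.2 and 99.5 CPM at 0.77 cP and 106, 113 and 112 CPM at 8 cP (log2 fold change 0.30, standard error 0.07, adjusted p = 0.009). The 3 samples at 0.77 cP were spread widely, but all lay below those at 8 cP. *ALDH18A1*, the first enzyme of proline synthesis from glutamate, rose as well (log2 fold change 0.17, standard error 0.04, adjusted p = 0.018). The steps on either side of *PSAT1* were not called: *PHGDH*, upstream of it (-0.23, adjusted p = 0.182), and *PSPH*, downstream (0.13, adjusted p = 0.119). *SHMT2*, which makes glycine in mitochondria (-0.02, adjusted p = 0.762), *MTHFD2* of mitochondrial folate metabolism (0.02, adjusted p = 0.821), *PYCR1*, a last step to proline (-0.11, adjusted p = 0.179), and *ASNS* (-0.29, adjusted p = 0.28) were not called.

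Single samples decided part of these calls. With any 1 of the 9 samples removed, 9 of the 18 calls were kept in every fit, namely *SLC38A2*, *SLC7A5*, *SLC3A2*, *NARS1*, *IARS1*, *FARSB*, *EPRS1*, *TARS1* and *LARS1*. Calls over all genes fell as well, from 3518 to 1409 without replicate 1 and 1927 without replicate 2 of SC cells at 0.77 cP. Without replicate 3 of SC cells at 8 cP they fell to 1418, so such losses were not particular to the members. All of the other 9 were lost without replicate 1 of SC cells at 0.77 cP, where 9 members in all passed. Without replicate 3 of SC cells at 8 cP 11 passed, and *GARS1*, *HARS1*, *KARS1*, *RARS1*, *VARS1*, *ALDH18A1* and *SLC38A1* were lost. Replicate 2 of SC cells at 0.77 cP removed *GARS1*, *HARS1*, *KARS1*, *VARS1*, *ALDH18A1* and *SLC38A1*, which left 12. *GARS1* and *HARS1* were also lost without replicate 1 or 2 of SC cells at 8 cP, *KARS1* without the latter, and *HARS1* and *KARS1* without replicate 2 and *HARS1* without replicate 3 of shTRPV4 cells. The highest adjusted p of a lost call was 0.206, for *HARS1*, and no called member changed direction.

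**Figure D2:**
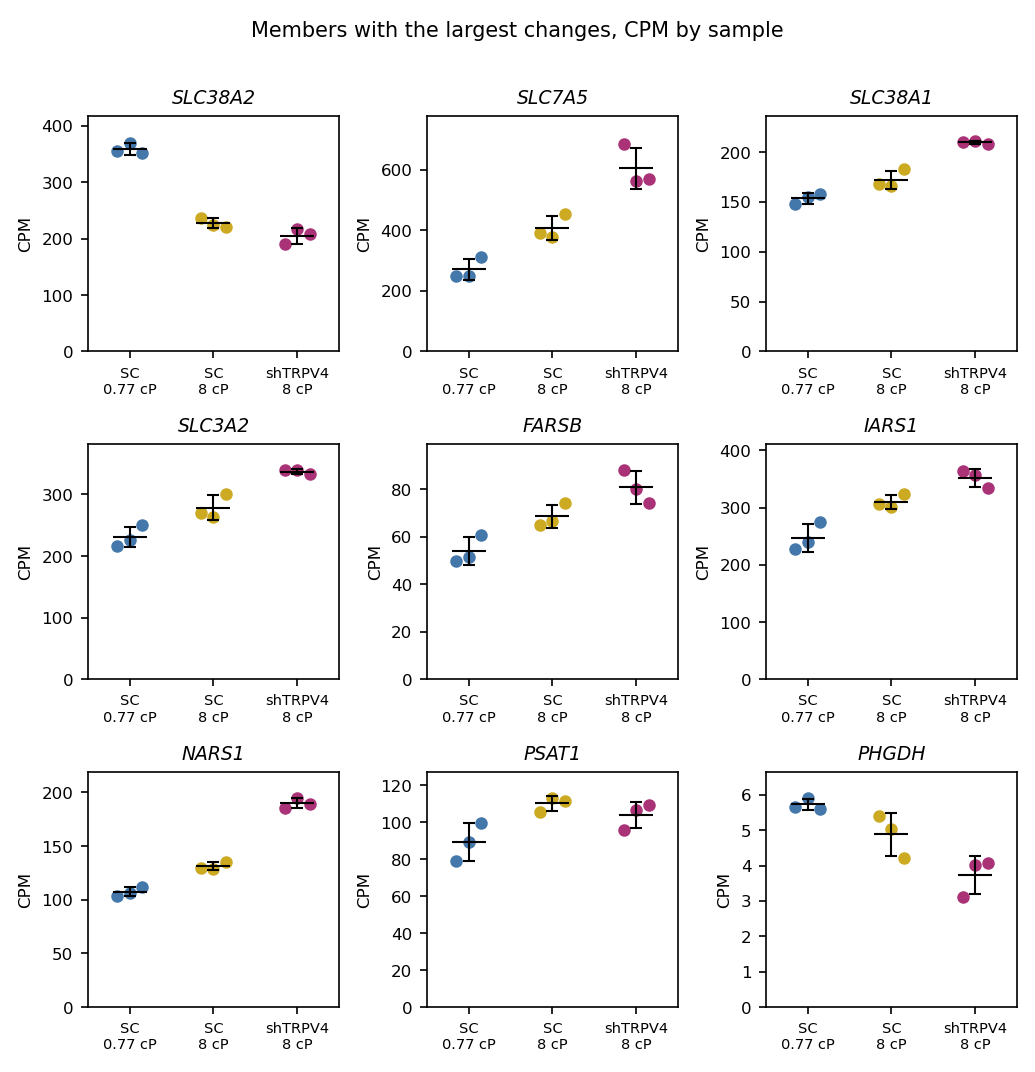
CPM of the 9 members with the largest called changes in each of the 9 samples (points), with the mean and SD of each group of 3 (black bars) and axes that start at 0. *SLC7A5*, *SLC3A2*, *SLC38A1*, *FARSB*, *IARS1* and *NARS1* step up from SC cells at 0.77 cP to SC cells at 8 cP and again to shTRPV4 cells, *SLC38A2* is lower in both groups at 8 cP, and *PHGDH* is lowest in shTRPV4 cells.

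Between shTRPV4 and SC cells at 8 cP, *NARS1*, the LAT1 chains and *SLC38A1* were higher in the knockdown, and *PHGDH* and *SLC1A5* were lower. Called members numbered 11 of 34 (32.4%), 9 higher and 2 lower, against 20.0% of all genes, of which 9.02% were higher and 11.0% lower in shTRPV4 cells. Over the genes with at least 50 CPM 27.1% were called, 10.3% higher and 16.8% lower. The median log2 fold change of the members was 0.0029 and that of all genes 0.00064, with 17 members above 0 and 17 below. SC cells at 8 cP serve in both this comparison and the one above, so each comparison's values are given on their own.

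Of the synthetases 6 were called higher in shTRPV4 cells, none lower, and the median was 0.065. *NARS1* stood out among them: it had 129, 128 and 135 CPM in SC cells at 8 cP and 186, 195 and 189 CPM in shTRPV4 cells (log2 fold change 0.54, standard error 0.04, adjusted p = 9.62e-07). The spread within each group was far smaller than the gap between the groups. *FARSB* had 65.1, 66.8 and 74.1 CPM in SC cells and 88.1, 80.2 and 74.2 CPM in shTRPV4 cells (log2 fold change 0.23, standard error 0.08, adjusted p = 0.0417). The highest SC sample and the lowest shTRPV4 sample of *FARSB* nearly touched. *FARSA* (0.17, adjusted p = 0.0165), *IARS1* (0.18, adjusted p = 0.0489), *GARS1* (0.16, adjusted p = 0.0477) and *VARS1* (0.15, adjusted p = 0.04) were higher with smaller changes, again as log2 fold change and edgeR's adjusted p.

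The other 13 synthetases were not called in this comparison, with values from -0.14 for *CARS1* to 0.12 for *KARS1* and *WARS1*. Among them *EPRS1* (-0.03, adjusted p = 0.76), *MARS1* (-0.01, adjusted p = 0.938), *AARS1* (-0.00, adjusted p = 0.984) and *YARS1* (0.01, adjusted p = 0.942) had values near 0. *TARS1* (0.06, adjusted p = 0.5), *LARS1* (0.10, adjusted p = 0.143), *RARS1* (0.06, adjusted p = 0.315) and *HARS1* (0.05, adjusted p = 0.464) had small positive ones. *QARS1* (-0.03, adjusted p = 0.651) and *SARS1* (-0.07, adjusted p = 0.483) had values below 0.

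*SLC7A5* had 392, 379 and 454 CPM in SC cells at 8 cP and 684, 561 and 569 CPM in shTRPV4 cells (log2 fold change 0.57, standard error 0.09, adjusted p = 0.000491). Replicate 1 of the shTRPV4 cells was the highest of the 9 samples, and the groups did not overlap. *SLC3A2* had 271, 263 and 301 CPM in SC cells and 339, 339 and 333 CPM in shTRPV4 cells (log2 fold change 0.28, standard error 0.06, adjusted p = 0.00321). *SLC38A1* had 168, 166 and 183 CPM and 210.3, 211 and 208 CPM in the same order (log2 fold change 0.28, standard error 0.05, adjusted p = 0.000549). For both genes the shTRPV4 samples were tightly grouped and all lay above the SC samples.

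*SLC1A5* was lower in shTRPV4 cells, at 238 ± 18.4 CPM against 272 ± 5.33 CPM (SD, n = 3 each) in SC cells at 8 cP (log2 fold change -0.19, standard error 0.05, adjusted p = 0.0221), and 794 of its exon bases are covered on the opposite strand as well. *SLC38A2* had 189.9, 217 and 208 CPM in shTRPV4 cells, all below the SC samples at 8 cP, without passing the threshold (log2 fold change -0.15, standard error 0.05, adjusted p = 0.0553). *SLC1A4* (-0.07, adjusted p = 0.616) and *SLC6A9* (-0.17, adjusted p = 0.181) were not called.

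*PHGDH* was the only synthesis gene called in this comparison (12.5%, against 20.0% of all genes tested), so its call is given for a single gene. It had 5.41, 5.04 and 4.22 CPM in SC cells at 8 cP and 3.12, 4.02 and 4.08 CPM in shTRPV4 cells (log2 fold change -0.39, standard error 0.12, adjusted p = 0.0281). The lowest SC sample, replicate 3, lay just above the highest shTRPV4 sample. The other 7 had values between -0.14 for *SHMT2* (adjusted p = 0.0587) and 0.02 for *PSPH* (adjusted p = 0.874), 6 of them below 0, and the median of the 8 was -0.082.

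Of these 11 calls, *NARS1*, *SLC7A5*, *SLC3A2* and *SLC38A1* were kept whichever sample was left out. The other 7 were all lost without replicate 1 or without replicate 2 of SC cells at 8 cP, which left 4 members each. Over all genes the calls fell from 3649 to 2361 and 2179 in these fits. Without replicate 1 of shTRPV4 cells *FARSA*, *FARSB*, *IARS1*, *VARS1*, *PHGDH* and *SLC1A5* were lost and 5 passed. *FARSB*, *GARS1*, *IARS1* and *VARS1* were lost without replicate 2 of shTRPV4 cells, and also without replicate 2 of SC cells at 0.77 cP, where 7 passed. That last sample is in neither group compared here. It enters through the shared estimate of spread, the filter, the scaling and the adjustment of p. *GARS1* and *SLC1A5* were lost without replicate 3 of SC cells at 8 cP and *GARS1* without replicate 3 of shTRPV4 cells, with adjusted p up to 0.191 among all lost calls.

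**Figure D3:**
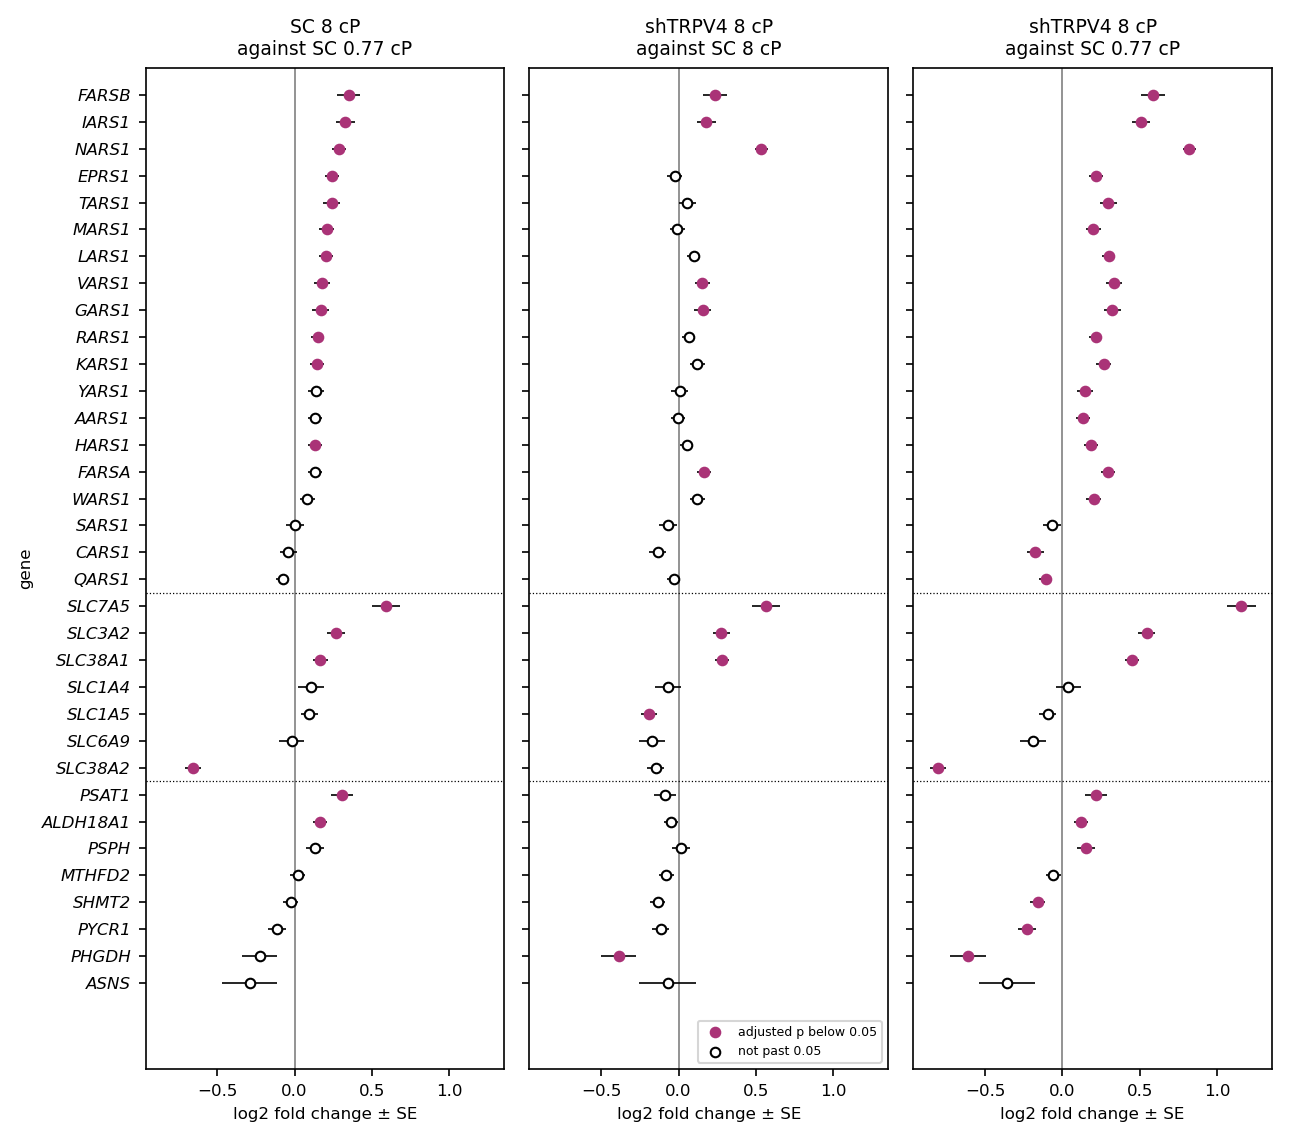
Log2 fold change (horizontal axis) with its standard error for each of the 34 genes (rows) in the 3 comparisons (panels), filled where the adjusted p was below 0.05 and open otherwise, with dotted lines between synthetases, transporters and synthesis enzymes. In the left panel 12 synthetases are filled to the right of 0, in the middle panel *NARS1* and *SLC7A5* stand farthest right, and in the right panel 28 genes are filled, 22 of them to the right.

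When shTRPV4 cells at 8 cP were set against SC cells at 0.77 cP, which differ from them in both viscosity and hairpin, 28 of the 34 members were called (82.4%), 22 higher and 6 lower in shTRPV4 cells. Of all genes tested 42.4% were called, 20.4% higher and 22.0% lower, and of the genes with at least 50 CPM 59.3% were called, 32.2% higher and 27.1% lower. The median log2 fold change was 0.19 over the members and -0.011 over all genes. This comparison shares its samples with both of the others. *SLC7A5*, which averaged 605 ± 68.6 CPM in shTRPV4 cells against 271 ± 35.5 CPM in SC cells at 0.77 cP (SD, n = 3 each), had the largest change of the 34 (log2 fold change 1.16, standard error 0.09, adjusted p = 1.94e-07). *NARS1* had the next, from 107 ± 4.32 CPM to 190.1 ± 4.51 CPM (SD, n = 3 each) (log2 fold change 0.82, standard error 0.04, adjusted p = 2.9e-09), similar in size to the fall of *SLC38A2* (log2 fold change -0.81, standard error 0.05, adjusted p = 2.05e-08). No sample of one group lay within the range of the other for any of the 3 genes.

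Of the 19 synthetases 16 were higher, with a median of 0.22, *CARS1* (-0.18, adjusted p = 0.0167) and *QARS1* (-0.11, adjusted p = 0.0474) were lower, and *SARS1* was not called (-0.07, adjusted p = 0.408). The summed level of the 19 was 3879 ± 68.1 CPM (SD, n = 3) in shTRPV4 cells. Beside *NARS1* the largest rises were those of *FARSB* (0.58, adjusted p = 2.52e-05), *IARS1* (0.51, adjusted p = 1.09e-05), *VARS1* (0.33, adjusted p = 7.91e-05) and *GARS1* (0.32, adjusted p = 0.000151). *SLC3A2* (0.54, adjusted p = 3.26e-06) and *SLC38A1* (0.45, adjusted p = 2.57e-06) were higher, and *SLC1A5*, *SLC1A4* and *SLC6A9* were not called. The 8 synthesis genes split, with *PSAT1* (0.22, adjusted p = 0.0214), *PSPH* (0.15, adjusted p = 0.0471) and *ALDH18A1* (0.12, adjusted p = 0.0454) higher and *PHGDH* (-0.61, adjusted p = 0.000553), *PYCR1* (-0.23, adjusted p = 0.00416) and *SHMT2* (-0.16, adjusted p = 0.0136) lower. Groups did not overlap in 25 of the 28 calls. That share was not taken over all genes and is not read as a result about the members. Leaving out single samples removed the calls of *AARS1*, *CARS1*, *QARS1*, *YARS1*, *PSAT1*, *PSPH*, *SHMT2* and *ALDH18A1* in 1 or more fits, with adjusted p up to 0.171, and 22 to 27 members passed. The *QARS1* call was lost in 8 of these 9 fits and in 5 of the 7 other alternatives, DESeq2 among them.

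**Figure D4:**
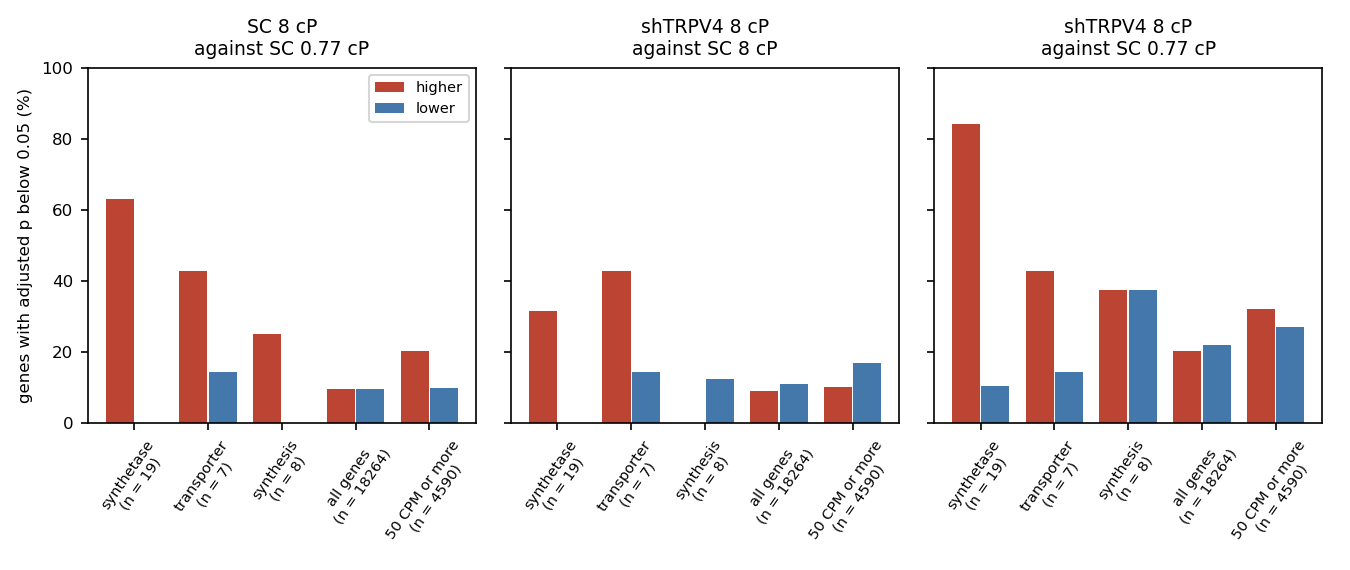
Share of genes with an adjusted p below 0.05 (vertical axis, percent), higher in red and lower in blue, for synthetases, transporters, synthesis enzymes, all 18264 genes tested and the 4590 genes with a mean of at least 50 CPM, in each comparison (panels). The red synthetase bar is the tallest for higher genes in the left (63.2%) and right (84.2%) panels, and transporters have the tallest red bar in the middle panel (42.9%).

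LAT1 needs 1 light and 1 heavy chain, and the ratio of their CPM within a sample does not depend on the scaling of libraries. CPM is not divided by gene length, so the ratio compares samples and does not give the ratio of transcripts. In SC cells at 0.77 cP *SLC7A5* and *SLC3A2* had 56.8 and 36.2 FPKM over merged exons. Over the canonical transcript they had 59.4 and 123 FPKM. *SLC7A5* per *SLC3A2* was 1.15, 1.11 and 1.25 in SC cells at 0.77 cP, 1.45, 1.44 and 1.51 in SC cells at 8 cP, and 2.01, 1.65 and 1.71 in shTRPV4 cells. The 3 groups did not overlap. On the log2 scale the mean ratio was 0.33 higher at 8 cP than at 0.77 cP in SC cells and 0.28 higher in shTRPV4 than in SC cells at 8 cP. A 2-sided exact permutation test gave p = 0.1 for each, the smallest p that 3 against 3 samples allow, so that this ratio could not reach the threshold. *SLC7A5* shares 271 exon bases with an unnamed gene on the opposite strand and *SLC3A2* shares none.

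The remaining genes of the pathway were taken from lists written from general knowledge. *TARS3* and the scaffold genes of the multi-synthetase complex (*AIMP1*, *AIMP2* and *EEF1E1*) also belong to the cytosolic set. Of these 4 genes, only *AIMP2* was called in the SC comparison (log2 fold change 0.34, standard error 0.06, adjusted p = 0.00299) and again between shTRPV4 and SC cells at 8 cP (log2 fold change 0.36, standard error 0.06, adjusted p = 0.000875). It had 21.8, 20.8 and 23.9 CPM in SC cells at 0.77 cP, 27.2, 26.8 and 30.1 CPM in SC cells at 8 cP and 37.5, 34.6 and 35.9 CPM in shTRPV4 cells, 3 ranges that did not overlap, and it shares 532 exon bases on the opposite strand with *EIF2AK1*. Of all genes tested 19.3% and 20.0% were called in these comparisons. The *AIMP2* calls are therefore given for a single gene and not for the list.

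Mitochondria have their own synthetases. Of the 17 genes on that list 5 rose and 1 fell with viscosity in SC cells (35.3%), against 19.3% of all genes tested. Their median log2 fold change was 0.090. *MARS2* rose from 8.36 ± 0.925 CPM to 12.9 ± 0.923 CPM (SD, n = 3 each) (log2 fold change 0.63, standard error 0.09, adjusted p = 0.000304), and *CARS2* (0.23, adjusted p = 0.018), *EARS2* and *LARS2* rose as well, while *VARS2* fell. *VARS2* had only 10 to 33 counts in a sample, and 4073 of its 6467 exon bases are also exon of an unnamed gene on the same strand. Between shTRPV4 and SC cells at 8 cP *AARS2* was higher (0.15, adjusted p = 0.0296) and 2 of the 17 genes were called in all (11.8%). This share lies below the 20.0% of all genes tested, so the *AARS2* call is given for a single gene and not for the list. The *CARS2* call was lost without replicate 1 or 2 of SC cells at 0.77 cP or replicate 3 of SC cells at 8 cP (adjusted p up to 0.0795), and the *AARS2* call without any 1 of the 6 samples at 8 cP (adjusted p up to 0.0987).

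Among 18 regulators of the amino acid and stress response 3 rose and 5 fell with viscosity in SC cells (44.4%). Of all genes tested 19.3% were called, and of those with at least 50 CPM 30.0%. The median log2 fold change of the 18 was -0.098. *ATF3*, a transcription factor induced by many stresses, had 78.0, 76.7 and 66.5 CPM at 0.77 cP and 12.9, 13.3 and 13.1 CPM at 8 cP (log2 fold change -2.50, standard error 0.07, adjusted p = 2.35e-12). *DDIT3*, which encodes CHOP, had 33.3, 35.4 and 38.2 CPM at 0.77 cP and 13.5, 14.8 and 15.4 CPM at 8 cP (log2 fold change -1.29, standard error 0.07, adjusted p = 4.74e-09). Both had all samples at 8 cP far below all samples at 0.77 cP. *CEBPB* (-0.86, adjusted p = 2.25e-06), *PPP1R15A*, whose product GADD34 returns eIF2 to its active form (-0.77, adjusted p = 3.82e-08), and *DDIT4*, an inhibitor of mTORC1 (-0.71, adjusted p = 6.36e-05), were the other genes that fell.

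*ATF4* had 325, 340.4 and 331 CPM in SC cells at 0.77 cP, 288, 297 and 298 CPM in SC cells at 8 cP and 253, 311 and 299.8 CPM in shTRPV4 cells. Its SC groups did not overlap, but the difference missed the threshold (log2 fold change -0.18, standard error 0.06, adjusted p = 0.0556), and DESeq2, the fit on the 6 SC samples, the fit with no filter on low counts and the fit without replicate 1 of shTRPV4 cells were among those that called it. *CEBPG*, a partner of ATF4, rose (0.23, adjusted p = 0.0105), as did the eIF2 kinase genes *EIF2AK4* (0.20, adjusted p = 0.0297) and *EIF2AK2* (0.20, adjusted p = 0.0211). The eIF2 kinase genes *EIF2AK1* (0.04, adjusted p = 0.546) and *EIF2AK3* (-0.08, adjusted p = 0.348) were not called. *TRIB3* (-0.11, adjusted p = 0.347), *CHAC1* (0.08, adjusted p = 0.716) and *SESN2* (-0.09, adjusted p = 0.503) were not called.

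Between shTRPV4 and SC cells at 8 cP, 1 of the 18 regulators was higher and 4 were lower (27.8%). Of all genes tested 20.0% were called, and of those with at least 50 CPM 27.1%. The calls that follow are therefore given for single genes and not for the list. *DDIT4* had 204, 222 and 197 CPM in SC cells and 103.8, 121 and 133 CPM in shTRPV4 cells (log2 fold change -0.80, standard error 0.08, adjusted p = 1.06e-05). *DDIT3* (-0.33, adjusted p = 0.00372), *SESN2* (-0.39, adjusted p = 0.00511) and *VLDLR* (-0.34, adjusted p = 0.00213) were lower too, and *EIF2AK1*, the heme-regulated eIF2 kinase gene, was higher (0.18, adjusted p = 0.00587). *ATF3* (-0.10, adjusted p = 0.369), *PPP1R15A* (0.02, adjusted p = 0.849), *CEBPB* (-0.15, adjusted p = 0.206) and *ATF4* (-0.03, adjusted p = 0.769) were not called. *VLDLR* shares 1360 exon bases with *VLDLR-AS1* and an unnamed gene on the opposite strand.

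**Figure D5:**
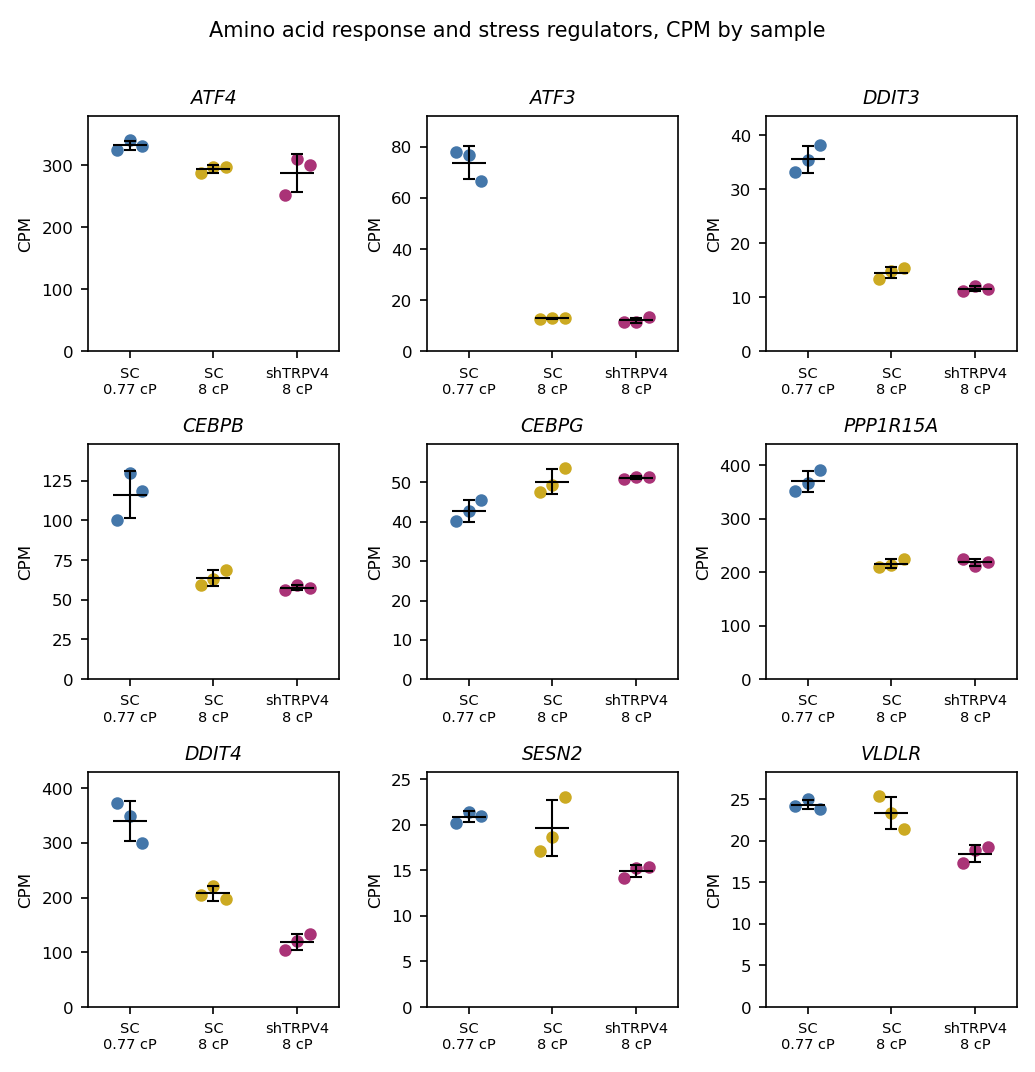
CPM of 9 regulators of the amino acid and stress response in each of the 9 samples (points), with the mean and SD of each group of 3 (black bars) and axes that start at 0. *ATF3*, *DDIT3*, *CEBPB* and *PPP1R15A* are high in SC cells at 0.77 cP and low in both groups at 8 cP, *DDIT4* steps down across the 3 groups, and *ATF4* has group means of 332, 294 and 288 CPM.

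Of 23 further amino acid transporters 18 were tested, and 5 rose and 3 fell with viscosity in SC cells (44.4%), against 19.3% of all genes tested. Their median log2 fold change was 0.13. *SLC7A11*, the cystine importer of glutathione synthesis, had 35.7, 40.5 and 35.0 CPM at 0.77 cP and 49.5, 49.8 and 60.0 CPM at 8 cP (log2 fold change 0.52, standard error 0.09, adjusted p = 0.00159), and 34.9, 44.8 and 41.2 CPM in shTRPV4 cells (log2 fold change -0.40, standard error 0.09, adjusted p = 0.00504 against SC cells at 8 cP). It was thus called higher in the first comparison and lower in the second, which share the SC samples at 8 cP. *SLC36A1*, which exports small amino acids from lysosomes, rose with viscosity (0.56, adjusted p = 0.00258), and the glutamate transporter *SLC1A3* fell (-0.65, adjusted p = 0.00207). In shTRPV4 against SC cells at 8 cP, 3 of the 18 were higher and 3 lower (33.3%), against 20.0% of all genes tested. Among them *SLC38A5* (1.28, adjusted p = 0.000107) and *SLC7A6* (0.42, adjusted p = 0.00129) were higher and *SLC1A1* was lower (-0.73, adjusted p = 0.000599). *SLC38A5* was a low gene, with means of 0.778 CPM in SC cells at 8 cP and 1.89 CPM in shTRPV4 cells, and *SLC7A6* shares 4217 exon bases on the opposite strand.

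Of 22 other enzymes of amino acid, folate and glutathione metabolism 20 were tested. With viscosity 7 rose and 2 fell in SC cells (45.0%), against 19.3% of all genes tested. Their median log2 fold change was 0.12. *GCLM*, the modifier subunit of glutathione synthesis (0.35, adjusted p = 0.00451), and *TYMS*, the thymidylate synthase (0.23, adjusted p = 0.00395), rose, and *GLUL*, the glutamine synthetase (-0.22, adjusted p = 0.00362), and *ASS1* of arginine synthesis (-0.55, adjusted p = 0.00591) fell. *ASS1* was higher in shTRPV4 than in SC cells at 8 cP (0.48, adjusted p = 0.0101), as was *MTHFD1* (0.19, adjusted p = 0.0305), and *MTHFD2L* was lower (-0.23, adjusted p = 0.0223). In that comparison 4 of the 20 were called (20.0%), the same share as over all genes, so these are results for single genes. The calls of *MTHFD1* and *MTHFD2L* were lost without replicate 1 or 2 of either group, and that of *MTHFD2L* also without replicate 3 of SC cells at 8 cP, with adjusted p up to 0.142 and 0.0768.

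Of the genes by which mTORC1 senses amino acids, 3 of the 20 tested were called in the SC comparison (15.0%) and 4 between shTRPV4 and SC cells at 8 cP (20.0%), with medians of 0.014 and 0.0020. These shares lie below or near the 19.3% and 20.0% of all genes tested, so the calls that follow are given for single genes and not for the list. *MTOR* (0.31, adjusted p = 0.0268) and *RPTOR* (0.21, adjusted p = 0.0243) rose with viscosity, and *CASTOR1*, an arginine sensor gene below 1 CPM, fell (-0.84, adjusted p = 0.0359). *SESN3* was much lower in shTRPV4 cells, at 2.66, 1.72 and 2.43 CPM against 7.03, 6.72 and 6.43 CPM in SC cells at 8 cP (log2 fold change -1.56, standard error 0.13, adjusted p = 9.93e-07). *RRAGA* was lower (-0.21, adjusted p = 0.00372) and *CASTOR2* higher (0.47, adjusted p = 0.0294). The calls of *MTOR*, *RPTOR* and *CASTOR1* were each lost without replicate 1 or 2 of SC cells at 0.77 cP or replicate 3 of SC cells at 8 cP, among others, with adjusted p up to 0.122, 0.0951 and 0.167. That of *CASTOR2* was lost without replicate 1 or 2 of SC cells at 8 cP or replicate 1 or 3 of shTRPV4 cells (adjusted p up to 0.13), and *CASTOR1* shares 1262 exon bases with an unnamed gene of the same strand.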

How the data were processed

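Bulk RNA-seq of MDA-MB-231 cells comprised 3 groups of 3 samples, which are named by the sample titles. As the methods and the labels state, strand-specific poly(A) libraries were mapped to GRCh38.p13 with HISAT2 2.2.1, and exon reads were totalled per Ensembl gene with HTSeq 0.13.5. The authors deposited raw counts, 1 table per sample, with no normalization. The strand option is not given in the sources used here. Identifiers were matched to symbols for 60463 of 60664 genes, and positions, exon lengths and shared bases were taken from GENCODE release 44.

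Counts were analysed in R 4.3.3 with edgeR 4.0.16 (TMM, filterByExpr, quasi-likelihood test, 1 coefficient per group, all 9 samples, Benjamini-Hochberg adjustment over 18264 genes). The common biological coefficient of variation was 0.0633. Replicates differed by more than sampling noise, so none were merged. Same-numbered samples of different groups had deviations that correlated between -0.0546 and 0.0904 across genes, so the numbers were not taken to pair samples.

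The members and lists were chosen with earlier results of these data known. Every sample's value is given for the 6 members with the largest called changes without overlap in each of the first 2 comparisons and the 2 with the largest changes in the third, and of each other list the 3 genes with the smallest adjusted p were named, with *ATF4*, *DDIT3* and *TRPV4*, except some genes that are not reported here. Further regulators and values were named after they had been seen. *SAMTOR* was not matched to an identifier. Alternatives were DESeq2 1.42.0, 2 other scalings, 2 other filters, only the 6 samples compared, the replicate number as a block and leaving out each sample. Limits of 50 CPM, canonical lengths and members without shared bases were added after the data had been seen.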

Additional observations from a re-analysis of the deposited data

How the results depend on the processing

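No called member changed direction under any alternative run. Left out 1 sample at a time, the number of members called ranged from 9 to 21 between the SC groups, from 4 to 12 between shTRPV4 and SC cells at 8 cP, and from 22 to 27 between the shTRPV4 group and SC cells at baseline viscosity. The median log2 fold change of the members ranged from 0.12 to 0.18, from -0.010 to 0.046 and from 0.15 to 0.23 in the same order. Such fits have 2 samples in a group, and the cause of the lower counts was not tested beyond the smaller number of samples. DESeq2 called 21, 13 and 27 members, upper quartile scaling 16, 9 and 24, library totals alone 17, 13 and 27, no filter on low counts 17, 12 and 25, at least 10 counts in every sample 19, 11 and 28, and only the 6 samples compared 17, 11 and 24. In the second comparison the median of all genes moved to 0.028 with library totals alone, and that of the members to 0.030. Counted over the 16 members that share no exon base, 12, 7 and 14 were called, fewer because fewer genes were counted.

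With the replicate number as a block, 20, 10 and 27 members were called. *FARSB* and *IARS1* lost their call between shTRPV4 and SC cells at 8 cP (adjusted p = 0.0524 for *FARSB*) and *QARS1* its call between shTRPV4 cells and SC cells at baseline viscosity, while *AARS1*, *YARS1* and *ATF4* (adjusted p = 0.0343 for *ATF4*) passed between the SC groups and *SHMT2* between the groups at 8 cP. The numbers are not known to pair the samples. Among single genes, 22 results passed the threshold and 25 lost it over the 7 alternatives other than leaving out single samples, of 1362 gene and setting combinations.

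With 3 samples a group, changes of the size seen here sit near the threshold. *HARS1* lost its call in the SC comparison with upper quartile scaling, library totals alone, no filter and only the 6 samples compared, and *KARS1* with upper quartile scaling. *AARS1*, *FARSA* and *YARS1* passed with DESeq2. *ASNS* lay near 1 CPM, where its standard error of 0.18 was the largest of the 34.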
